A study of Mus musculus with 2 samples.

Results

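Within the macrophage gate of the wild-type mouse small intestine, 476 cells carried transcripts of both Ccr2 and Plac8. They were selected on 2 measured values, at least 2 unique molecular identifiers (UMIs, each standing for 1 captured transcript end) of Ccr2 and at least 1 UMI of Plac8, among cells that passed a filter of 200 or more detected genes and no more than 10% mitochondrial UMIs. They made up 15.8% of the 3016 wild-type cells that passed this filter (95% Clopper-Pearson interval 14.5% to 17.1%). Ccr2 encodes the receptor for the chemokine CCL2 and lies on chromosome 9 (GRCm38, 124101950 to 124113557, plus strand). Plac8, on chromosome 5 (100553725 to 100572245, minus strand), encodes a small cysteine-rich protein found in several kinds of leukocyte and in epithelium. Because both genes chose the cells, neither is reported as a difference.

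Most macrophages of the gut wall are renewed from blood monocytes, which use CCR2 to leave the bone marrow. On entering the mucosa these cells lose Ly6C, take up MHC class II and CD64, and step by step acquire the genes of a mature macrophage, a sequence often called the monocyte waterfall. A smaller set of gut macrophages marked by Tim-4 and CD4 is maintained locally and depends little on this supply.

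The wild-type library came from male C57BL/6J mice obtained from Janvier. The intestines of 3 to 4 animals were pooled, and CD45+ cells were sorted that bore CD11b, MHC class II and CD64 and lacked CD3, TCRb, B220, SiglecF, Ly6C and Ly6G. Cells bearing surface Ly6C, the classical monocyte marker, were thus removed before sequencing. A 2nd library was made the same way from CCR2-/- mice, a JAX strain (004999) bred in-house, for which the labels give no sex, and age is given for neither genotype. There was 1 library per genotype, so no difference has a replicate and no test was made. Intervals are 95% exact intervals, Poisson for levels and Clopper-Pearson for shares, and cover counting error only, since UMIs of 1 library say nothing of the spread between animals.

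In total 20766579 UMIs in 3054 cells were deposited for the wild type. Their barcodes carry 2 suffixes, called lanes here. Both lanes belong to the 1 wild-type sample of pooled animals, so values from each are used as a technical yardstick. That they share the animals and the sort was not tested. The gate took 333 of 2109 cells in lane 1 and 143 of 907 in lane 2, which is 15.8% in each. The lanes had 5 barcodes in common, 3 of them in gated cells, and the 2 libraries had 6 in common, 1 of them in a gated cell.

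The gated cells were deeply sequenced, with a median of 8967 UMIs and 2394 genes per cell. The 1378 passing wild-type cells with no UMI of either gene, used for comparison below, had medians of 4953.5 UMIs and 1752.5 genes. A deep cell reaches a UMI count more readily, so depth moves with the gate. After every cell was thinned at random to 2000 UMIs, 166 of 2868 cells met the gate, 5.79% (4.96% to 6.71%). Thinning can only lower a count, so all 166 were necessarily among the 469 gated cells deep enough to be thinned. Mitochondrial genes took a median of 2.22% of UMIs in gated cells and 3.41% in the comparison cells.

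Most gated cells were well inside the gate for Ccr2 and many were at its edge for Plac8. The median was 6 Ccr2 UMIs and 3 Plac8 UMIs per cell, and the highest values were 31 and 89. Plac8 stood at 1 UMI in 165 gated cells (34.7%), at 2 to 7 in 189 and at 8 or more in 122. Just inside both limits, with 2 Ccr2 UMIs and 1 Plac8 UMI, lay 27 cells. Just outside lay 107 cells with 2 Ccr2 UMIs and no Plac8, and 41 cells with 1 UMI of each gene. In the 27 cells S100a6, a gene described below, stood at 27.8 CPM (UMIs per 1000000; 10.2 to 60.5), and in all 69 cells with 1 Ccr2 UMI and any Plac8 it stood at 17.7 CPM (8.49 to 32.6).

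**Figure D1:**
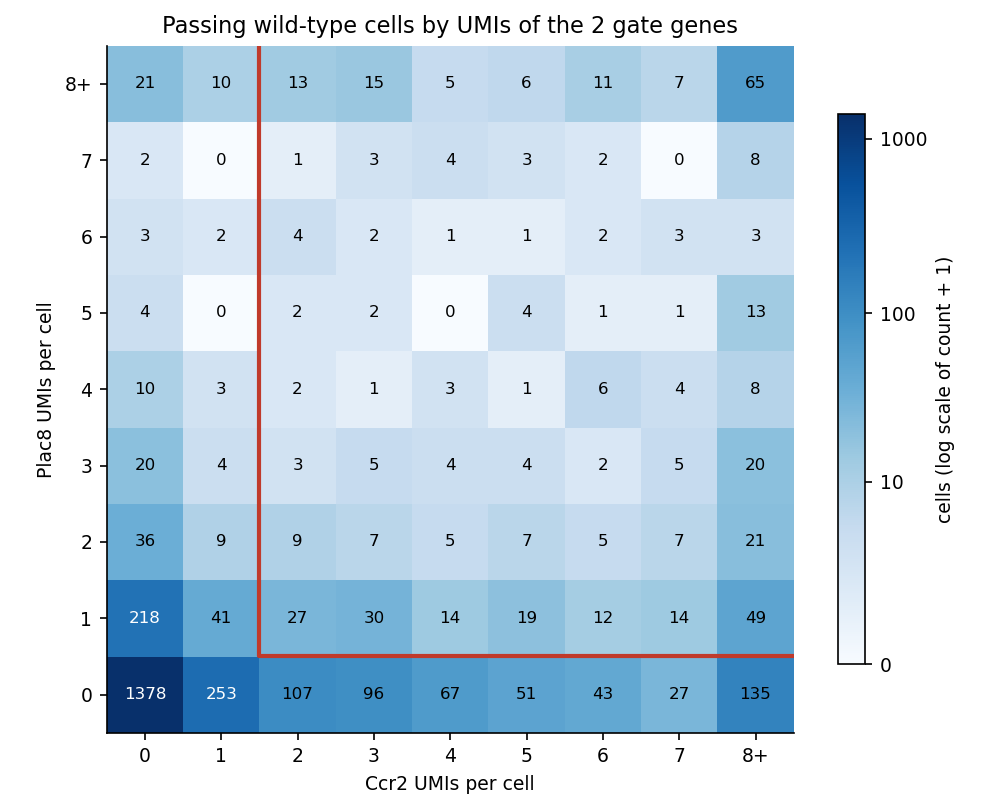
Number of passing wild-type cells at each combination of Ccr2 UMIs (horizontal axis) and Plac8 UMIs (vertical axis), with 8 or more as 1 step; the red line encloses the 476 gated cells. The largest single field outside is that of the 1378 cells with neither gene, and 65 cells had 8 or more UMIs of both.

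In the CCR2-/- library, 6 of 2612 passing cells met the gate, 0.230% (0.0843% to 0.499%), and 30 cells held any Ccr2 UMI against 1324 of 3016 wild-type cells. Absence there follows in part from the targeted gene being part of the rule. Plac8, which was not targeted, was detected in 8.58% of CCR2-/- cells (7.53% to 9.72%) and in 28.5% of wild-type cells (26.9% to 30.1%). In the 1595 CCR2-/- and 2868 wild-type cells deep enough to be thinned to 2000 UMIs, the shares were 7.40% (6.16% to 8.79%) and 14.8% (13.5% to 16.2%). The wild-type share was thus higher among these cells too. Thinning left out 1017 shallower CCR2-/- cells and 148 wild-type cells, so the 2 libraries were not cut alike. The median depth was 2439 UMIs in CCR2-/- cells and 6129 in wild-type cells. Genotype, source of the animals and library cannot be told apart.

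Across genes, UMIs were summed over the gated cells and over the comparison cells and scaled to CPM, and the log2 ratio was taken with 1 CPM added to each level. A gene was called when this ratio reached 1 in size, a 2-fold difference. Of 6994 genes with a mean of at least 10 CPM, 99 were at least 2-fold higher in the gated cells, 1.42% of those compared, and 246 were at least 2-fold lower, 3.52%. The median ratio of all of them was −0.09. Scaling by median-of-ratios size factors instead moved this median to 0.00 and gave 127 higher and 201 lower genes. Each lane on its own gave a 2-fold difference in the same direction for 73 of the 99 and for 184 of the 246. Since the cells were chosen by their transcripts, these ratios describe the gated cells and test nothing.

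**Figure D2:**
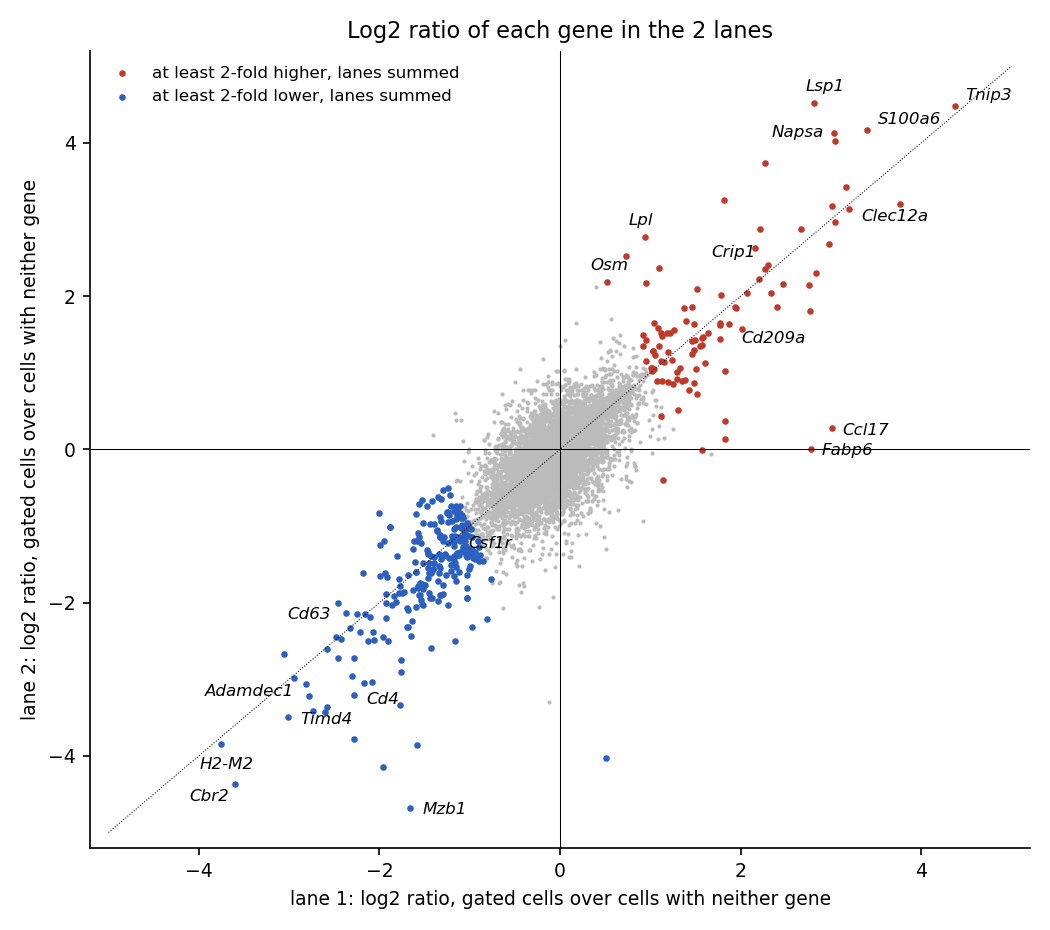
Log2 ratio of gated cells over cells with neither gate gene in lane 1 (horizontal axis) and in lane 2 (vertical axis) for each compared gene; 4 haemoglobin genes fall outside the axes. Tnip3, S100a6, Lsp1 and Clec12a lie far from 0 in both lanes, whereas Ccl17 (3.01 and 0.27) and Fabp6 (2.77 and 0.01) are far from 0 in lane 1 only.

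The 20 highest genes held members of several families, among them S100a6, S100a11, Anxa1 and Anxa2 and the actin-binding Lsp1 and Capg. S100a6, a calcium-binding protein of motile cells, stood at 103.6 CPM in gated cells of lane 1 and 167.6 CPM in those of lane 2, against 8.90 and 8.38 CPM in the comparison cells. In both lanes the level was more than 10 times as high. The log2 ratio over both lanes was 3.68, from 123.6 CPM (113.5 to 134.3) against 8.73 CPM (6.77 to 11.1). Lsp1, an actin-binding protein of leukocytes, stood at 129.1 and 165.5 CPM in the gated cells of the lanes, against 17.6 and 6.28 CPM. Its log2 ratio was 3.23. The largest ratio among genes past 2-fold in both lanes was that of Tnip3, which encodes a binding partner of the NF-kB inhibitor A20. Its level was 44.9 CPM (38.9 to 51.5) against 1.17 CPM (0.536 to 2.23), a log2 ratio of 4.40, and its UMIs came from 63 of the 476 cells.

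Napsa, Ifitm6 and Clec12a also had log2 ratios above 3 in each lane. Napsa, an aspartic protease found in monocytes, reached 56.9 CPM against 4.69 CPM, with log2 ratios of 3.03 in lane 1 and 4.13 in lane 2. Ifitm6, a myeloid member of the interferon-induced transmembrane family, reached 41.8 CPM against 3.00 CPM (3.05 and 4.02). Clec12a, an inhibitory C-type lectin of myeloid cells, reached 92.9 CPM against 9.38 CPM (3.20 and 3.14). Ass1, which makes argininosuccinate from citrulline, stood at 23.8 CPM against 1.17 CPM, and Mcemp1, a myeloid membrane protein, at 21.8 CPM against 1.69 CPM. The signalling genes Il17ra, the IL-17 receptor chain (22.7 against 2.22 CPM), and Traf1, an adaptor of TNF receptors (28.0 against 3.39 CPM), were also among the 20 highest. The other genes among those 20 were Skint3, Capg, an actin filament capping protein, Ms4a8a, Alcam, an adhesion molecule, Sirpb1a, Sirpb1c, Gm9844 and 3 further S100 and annexin genes described next, with log2 ratios of 2.31 to 3.24. Sirpb1a and Sirpb1c are close paralogues, and Gm9844 is annotated as protein-coding. The effect of reads that match several similar genes on these levels was not tested.

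Of 15 S100, annexin, galectin and vimentin genes above 10 CPM, 8 were at least 2-fold higher and 0 lower, with a median log2 ratio of 1.16. The median was 0.85 in lane 2 alone and 0.58 when all other passing cells, those with 1 gate gene included, were the comparison. Besides S100a6 these were Anxa2, a membrane-binding annexin (3.01), Anxa1, the glucocorticoid-induced annexin (2.53), S100a11 (2.31), S100a10, the partner of Anxa2 (2.23), Vim, the intermediate filament vimentin (1.47), Lgals1, galectin-1 (1.45), and Ahnak, a large scaffold protein that binds S100a10 (1.16, with 0.85 in lane 2). The list was not uniform. Lgals3, galectin-3 of macrophages, stood at 0.36, and Anxa5 at −0.28. S100a8 and S100a9, the calprotectin subunits of neutrophils and classical monocytes, had 0 UMIs in the gated and in the comparison cells.

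Of 20 actin and migration genes, 2 were at least 2-fold higher and 0 lower, and the median ratio was 0.33. Lsp1 and Tmsb10, an actin-monomer-binding thymosin, were those 2. Tmsb10 stood at 1727 CPM (1689 to 1766) against 372.3 CPM (358.7 to 386.2), and its lane ratios were 2.21 and 2.22. The related Tmsb4x stood at −0.07. Crip1, a LIM-domain protein that belonged to no list and was picked after its values were seen, stood at 885.5 CPM (858.2 to 913.5) against 179.0 CPM (169.6 to 188.7). Among 14 integrin and adhesion genes only Itgb7 was past 2-fold upward. It encodes the beta-7 chain of the gut-homing integrin and stood at 42.7 CPM against 8.47 CPM (2.40 in lane 1, 1.85 in lane 2). Its partner chain Itga4 stood at 0.31.

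The classical monocyte list gave a mixed picture, and the cells are therefore called by their gate here, not by the name monocyte. Of its 20 genes, 10 were above 10 CPM. Of those, 4 were at least 2-fold higher (S100a6, Napsa, Lsp1 and Ms4a4c) and 0 lower, with a median of 0.80. Ms4a4c, a membrane-spanning protein of Ly6C-high monocytes, stood at 152.9 CPM against 45.8 CPM. The genes that define blood monocytes were rare. Ly6c2, the Ly6C antigen itself and a target of the sort, had 39 UMIs in 18 of the 476 cells. Its level was 9.04 CPM against 1.51 CPM in lane 1 and 7.84 CPM against 7.12 CPM in lane 2, so only lane 1 showed a difference. Vcan, a matrix proteoglycan, stood at 1.11 CPM.

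A few genes of the list were scarce in both sets and scarcer in the comparison cells. Fn1, fibronectin, had 68 UMIs in 34 cells (15.1 CPM against 0.782 CPM). S100a4 had 77 UMIs in 33 cells (17.1 against 1.17 CPM), and Clec4e, the lectin Mincle, had 40 UMIs in 24 cells (8.89 against 0.521 CPM). These 3 had a mean under 10 CPM and so were not counted. In the other direction, F13a1, coagulation factor XIII, stood at −0.80 and Thbs1, thrombospondin, at −0.51. Of 5 nonclassical monocyte genes above the minimum 0 passed 2-fold, and the highest was Nr4a1, a nuclear receptor required by those monocytes, at 0.97.

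C1q and lysozyme transcripts were found in nearly every gated cell, and most macrophage genes stood below their level in the comparison cells. C1qa, C1qb and C1qc, the 3 chains of complement C1q, were detected in 466, 465 and 469 of the 476 cells. C1qa stood at 3521 CPM (3466 to 3576) against 5852 CPM (5798 to 5906), a log2 ratio of −0.73, and C1qb at −0.39. Among 16 core macrophage genes, Lyz2, lysozyme, had the highest ratio, at 0.39. Of these 16, 4 were at least 2-fold lower and 0 higher, and their median was −0.69. The 4 were Cd63, a tetraspanin of late endosomes (70.0 against 354.9 CPM, −2.33 in each lane), Mertk, a receptor for dying cells (18.0 against 50.3 CPM), Csf1r, the CSF-1 receptor (517.5 against 1184 CPM), and Ctsb, cathepsin B (−1.07). Fcgr1, which encodes the CD64 used in the sort, stood at 178.9 CPM against 225.8 CPM.

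**Figure D3:**
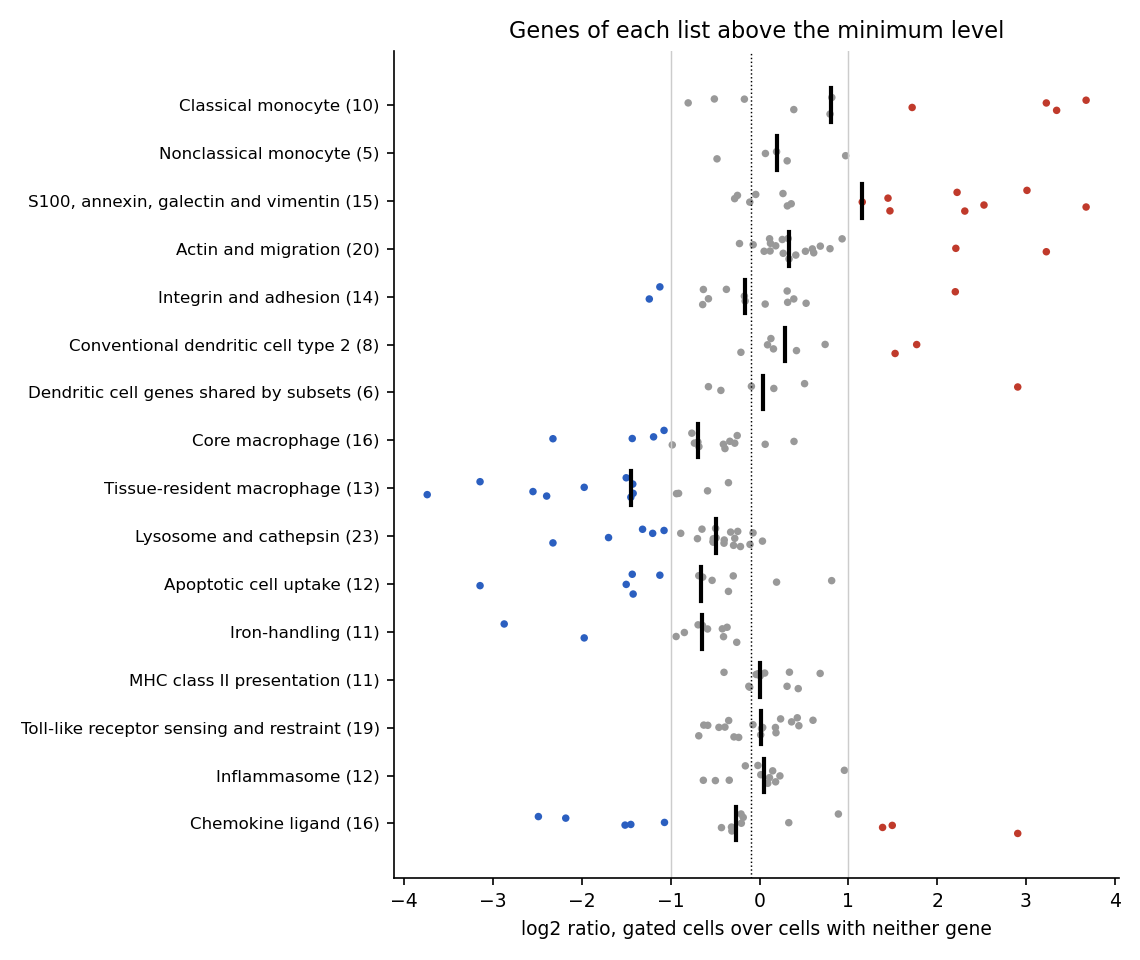
Log2 ratio of gated cells over cells with neither gate gene for the genes of 16 lists (number above 10 CPM in brackets), with points red at 1 or more, blue at −1 or less, and a black bar at each list's median; the dotted line is the median of all compared genes, −0.09. The S100 list lies furthest to the right (median 1.16) and the tissue-resident macrophage list furthest to the left (median −1.45).

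Tissue-resident macrophage genes stood lowest. Of 13 above the minimum, 9 were at least 2-fold lower and 0 higher, and the median was −1.45. Timd4, the phosphatidylserine receptor Tim-4, stood at 6.46 CPM and 4.28 CPM in the gated cells of lanes 1 and 2, against 59.2 and 58.6 CPM. Its UMIs came from 24 gated cells. Cd4 stood at 24.0 CPM against 145.5 CPM (−2.28 and −3.21 in the lanes) and Cbr2, a carbonyl reductase of resident macrophages, at 1.11 CPM against 27.2 CPM, from 4 gated cells. Igf1, an insulin-like growth factor (−2.40), Cd163, the haemoglobin scavenger receptor (−1.97), Pf4, platelet factor 4 (−1.45), Fcrls, a scavenger-like relative of the Fc receptors (−1.43), Stab1, a scavenger receptor (−1.42), and Gas6, the Mertk ligand (36.0 against 103.8 CPM), were the other 6. Mrc1, the mannose receptor, stood at −0.93.

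The gene with the lowest ratio past 2-fold in both lanes was H2-M2, a nonclassical MHC class I gene, at 4.22 CPM against 71.2 CPM (−3.76 and −3.84). Adamdec1, a secreted metalloprotease typical of gut macrophages, stood at 74.7 CPM (66.9 to 83.1) against 566.0 CPM (549.2 to 583.0). Pla2g2d, a secreted phospholipase A2, stood at 36.2 against 288.8 CPM, Wnt4, a Wnt ligand, at 26.2 against 188.0 CPM, and Slc40a1, the iron exporter ferroportin, at a ratio of −2.88. Gas1, Car2, Gpr55, Gdpd1, Xlr and Tmprss5 were also among the 15 lowest, at ratios of −2.53 to −2.93. The last of the 15, Mzb1 (−2.99), is a plasma cell gene and belongs to another lineage: 144 of its 337 UMIs in the comparison cells came from 1 cell. When all cells with 3 or more UMIs of another lineage's markers were left out, its ratio was −0.04. Mzb1 is itself one of those markers, so the filter removed cells rich in it and this value is no independent check. The filter left out 1304 passing cells, 215 of them gated.

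Several genes of uptake and degradation were lower as well. Of 23 lysosome genes 5 were at least 2-fold lower and 0 higher (median −0.49), led after Cd63 by Acp5, tartrate-resistant acid phosphatase (277.5 against 903.9 CPM), and Ctsl, cathepsin L (−1.32). Of 12 genes for uptake of dying cells 5 were lower and 0 higher (median −0.66), namely Timd4, Gas6, Mertk, Stab1 and the integrin chain Itgav. Trem2, a lipid-sensing receptor, stood at 0.81. Of 11 iron-handling genes 2 were lower, Slc40a1 and Cd163, and all 11 had a ratio below 0. The matrix proteases Mmp9 (141.6 against 535.6 CPM), Mmp13 and Mmp2 were lower, and Mmp12, macrophage elastase, was higher at 1.74. Its UMIs came from 51 cells, and its ratio was 0.03 when the gate was applied after thinning.

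Genes of antigen presentation stood at similar levels in both sets of cells. Of 11 MHC class II genes 0 passed 2-fold in either direction and the median was 0.01, with H2-Aa, an MHC class II chain, at 11217 CPM against 11508 CPM. MHC class II was part of the sort. Of 9 MHC class I genes 0 passed 2-fold, with a median of −0.12. Of 9 costimulation and checkpoint genes 2 were lower, Pdcd1lg2 (PD-L2, −2.21) and Cd274 (PD-L1, −1.08), and Cd86 stood at −0.16.

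Dendritic cell genes stood on both sides of 0. Of 8 genes of type 2 conventional dendritic cells 2 were at least 2-fold higher, the lectins Cd209a and Clec10a. Cd209a stood at 62.0 and 89.1 CPM in the gated cells of the lanes, against 16.3 and 28.1 CPM. Clec10a had a ratio of 1.53. Irf4, the transcription factor of that subset, stood at 0.42 and Sirpa at −0.21. Flt3, the growth factor receptor that dendritic cells keep and macrophages lack, had 19 UMIs in 17 cells, and Zbtb46, a dendritic cell transcription factor, was detected in 0.42% of gated cells. Itgax, the integrin CD11c, stood at −0.57.

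Ccl17, a chemokine of dendritic cells, had been named as a marker of these cells together with S100a6 and Lsp1, and its level rested on few cells. All of its 179 UMIs came from 13 cells, 100 of them from 1 cell. The log2 ratio was 2.91 over both lanes, 3.01 in lane 1 and 0.27 in lane 2. With the gate applied after thinning it was −0.015.

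Chemokines and cytokines differed in both directions. Of 16 chemokine ligands 3 were at least 2-fold higher and 5 lower. Besides Ccl17, the higher ones were Ccl9, at 134.4 CPM against 47.1 CPM, and Ccl6, at 590.6 CPM against 225.4 CPM, both CCR1 ligands of myeloid cells. The lower ones were Ccl8 (88.0 against 499.1 CPM), Ccl24 (29.8 against 138.7 CPM), Ccl7 (−1.51), Ccl12 (−1.07) and Pf4, which is also in the resident macrophage list. Il1b, interleukin-1 beta, stood at 1840 CPM against 948.3 CPM, a ratio of 0.96 (0.84 and 1.22 in the lanes). Il10, the anti-inflammatory cytokine, stood at 9.11 CPM against 27.2 CPM. Osm, oncostatin M, was past the limit at 1.08 but differed between lanes, at 0.52 and 2.18.

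Among the remaining lists few genes passed the limit. Of 14 prostaglandin and leukotriene genes, Alox5ap, the activating protein of 5-lipoxygenase, was higher (113.3 against 39.2 CPM) and 4 were lower, led by Ltc4s, leukotriene C4 synthase (−1.87), and Hpgds, a prostaglandin D synthase (−1.86). Of 11 C-type lectin receptors 4 were higher, Clec12a, Cd209a, Clec10a and Clec4b1, and 1 lower, Clec4n, which encodes Dectin-2. Of 33 transcription factors only Id3, an inhibitor of helix-loop-helix factors, was past 2-fold, with 1.82 in lane 1 and 0.37 in lane 2. Of 19 Toll-like receptor and signalling genes 0 passed in either direction, and of 12 inflammasome genes also 0. Genes of metabolism and acute response lay slightly above 0. Of 16 glycolysis and hypoxia genes 1 was higher, Pfkp, a phosphofructokinase (1.27), and the list's median was 0.39. Of 19 immediate-early genes 1 was higher, Dusp2, a MAP kinase phosphatase (1.54), with a median of 0.23. Of 13 proliferation genes 1 was higher, Cks2, a regulator of cyclin-dependent kinases (1.07), with medians of 0.51 in lane 1 and −0.02 in lane 2. Of 20 interferon response genes Gbp2, a guanylate-binding protein, was higher (1.84), Ifitm1 was lower (−1.38), and the median was 0.06. Of 12 heat-shock genes 1 was lower, the co-chaperone Bag3 (−1.08). Of 14 complement genes C3 was higher (1.91) and 2 were lower, among them C6 (−2.30).

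Receptor lists lay mostly below 0. Of 17 cytokine and growth factor receptors only Csf1r was past 2-fold, and the median was −0.32. Of 10 Fc receptor and related genes Ms4a4c was higher and Ms4a7 lower (−1.40). Of 4 chemokine receptors 0 passed, and Cx3cr1, the fractalkine receptor of gut macrophages, stood at 439.1 CPM against 745.3 CPM. Of 10 cytokine genes 1 was higher and 3 were lower. Of 14 lipid-handling genes Lpl, lipoprotein lipase, was higher, with lane ratios of 0.94 and 2.76, and the scavenger receptor Msr1 lower (−1.18). Of 4 genes of retinoid handling 1 was lower, the retinoid X receptor Rxra (−1.59). Of 6 genes shared by dendritic cell subsets 1 was higher, Ccl17, and of 3 genes of type 1 dendritic cells 1 was lower, the adhesion molecule Cadm1 (−2.44). Of 11 TGF-beta pathway genes 1 was lower, Itgav, which encodes an integrin chain that helps release TGF-beta (−1.12). The TGF-beta receptors Tgfbr1 and Tgfbr2, which gut macrophages use to mature, stood at −0.72 and −0.73. Over the alternative runs described below, Tgfbr1 ranged from −1.23 to −0.57 and Tgfbr2 from −0.95 to −0.09. The last value came from cells of 4000 to 8000 UMIs.

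The higher genes differed in how many gated cells they were detected in. The abundant Tmsb10 and Crip1 were detected in 96.9% and 88.9% of gated cells, and after thinning to 2000 UMIs in 87.4% and 62.5% of them, against 37.6% and 22.4% of comparison cells. S100a6 was detected in 37.8% of them and in 4.14% of the comparison cells, and in 13.9% (10.9% to 17.3%) and 1.94% after thinning to 2000 UMIs. The thinned share was 2.70% in 37 wild-type cells with at least 4 T, B or plasma cell marker genes, gated cells left out. The median depth of those 37 cells was 8143 UMIs. Lsp1, which lymphocytes also express, was detected in 44.1% of gated cells, and after thinning in 21.1% of them, in 2.25% of comparison cells and in 18.9% of the 37. Clec12a was detected in 39.9% of gated cells, and after thinning in 15.6% of them, in 1.94% of comparison cells and in 0 of the 37, which allows a share of up to 8.11%, taken as 3 cells of the 37. C1qa was found in 97.9% of gated cells, and after thinning in 93.0% of them, 99.1% of comparison cells and 62.2% of the 37. The source of C1qa UMIs in those 37 cells was not tested.

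Taking S100a6, Lsp1, Napsa, Ifitm6, Clec12a, Anxa2, Tnip3 and Ass1 together, a set of 8 picked after their ratios were known, 124 gated cells (26.1%) held UMIs of 4 or more and 76 held none. Among the comparison cells 2 of 1378 held 4 or more and 1125 (81.6%) none. At 2000 UMIs per cell, 13 of 469 gated cells held 4 or more and 215 (45.8%) none, against 0 and 1184 (91.9%) of 1288 comparison cells. The cells with at least 2 Ccr2 UMIs and no Plac8 lay between. Of these 526, 33 held 4 or more and 185 (35.2%) none, and after thinning 2 and 328 (64.1%) of 512. Cells with several of these transcripts and cells with none detected thus lay side by side in the gate.

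Within the gate, S100a6, Lsp1, Napsa, Ifitm6, Clec12a, Anxa2 and Tnip3 were each higher at each step in the number of Plac8 UMIs. These genes had been picked for high ratios in cells chosen partly by Plac8. Their order over Plac8 thus describes the gated cells and is no independent result. Depth hardly differed over the 3 steps, with medians of 8854, 8848 and 9350.5 UMIs per cell. S100a6 stood at 56.1 CPM (44.8 to 69.5) in cells with 1 Plac8 UMI, 105.2 CPM (90.7 to 121.4) with 2 to 7 and 232.6 CPM (206.3 to 261.2) with 8 or more. Each lane gave the same order, 42.8, 99.0 and 195.2 CPM in lane 1 and 87.5, 121.4 and 294.4 CPM in lane 2. Tnip3 stood at 14.7, 47.8 and 77.5 CPM and Clec12a at 68.8, 88.9 and 128.1 CPM. The step was small for Anxa2, at 56.1, 81.6 and 93.8 CPM, where the intervals of the last 2 overlap. Lsp1 stood at 67.5, 123.8 and 253.8 CPM, Crip1 at 486.2, 979.0 and 1238 CPM, and Cd209a at 32.7, 60.2 and 131.4 CPM over the same steps. In lane 1 the Cd209a levels were 27.6, 60.8 and 111.3 CPM and in lane 2 they were 44.8, 58.7 and 164.5 CPM.

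C1qa ran the other way, at 4568, 3345 and 2495 CPM, also in each lane. Csf1r stood at 617.7, 490.6 and 434.1 CPM, with the last 2 steps at 471.4 and 487.0 CPM in lane 2. H2-Aa showed no such order, at 11577, 10747 and 11460 CPM. Adamdec1 was low at every step, at 74.8, 96.2 and 43.3 CPM.

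The cells that met only 1 side of the gate differed from each other. The 526 cells with at least 2 Ccr2 UMIs and no Plac8 stood near the gated cells with 1 Plac8 UMI for some genes. S100a6 stood at 57.7 CPM (50.6 to 65.4), C1qa at 4439 CPM and Cd63 at 94.6 CPM. Adamdec1, at 132.5 CPM, was higher in them, with 125.5 and 155.4 CPM in the lanes against 74.2 and 76.3 CPM. Cd209a was higher in them in lane 1, at 52.2 CPM (44.6 to 60.7) against 27.6 CPM (18.5 to 39.6). In lane 2 it stood at 55.2 CPM (41.5 to 72.0) against 44.8 CPM (27.4 to 69.3), and these intervals overlap. The 314 cells with Plac8 and no Ccr2 stood near the comparison cells for the macrophage genes, with Cd63 at 313.5 CPM (290.8 to 337.5), Adamdec1 at 482.9 CPM and C1qa at 5513 CPM. Their S100a6, at 43.5 CPM (35.3 to 53.0), was nonetheless above the 8.73 CPM of the comparison cells. Epithelial and plasma cell transcripts were also abundant in them, with the antimicrobial lectin Reg3b at 552.1 CPM and the immunoglobulin joining chain Jchain at 6275 CPM, and their part in these levels was not tested.

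**Figure D4:**
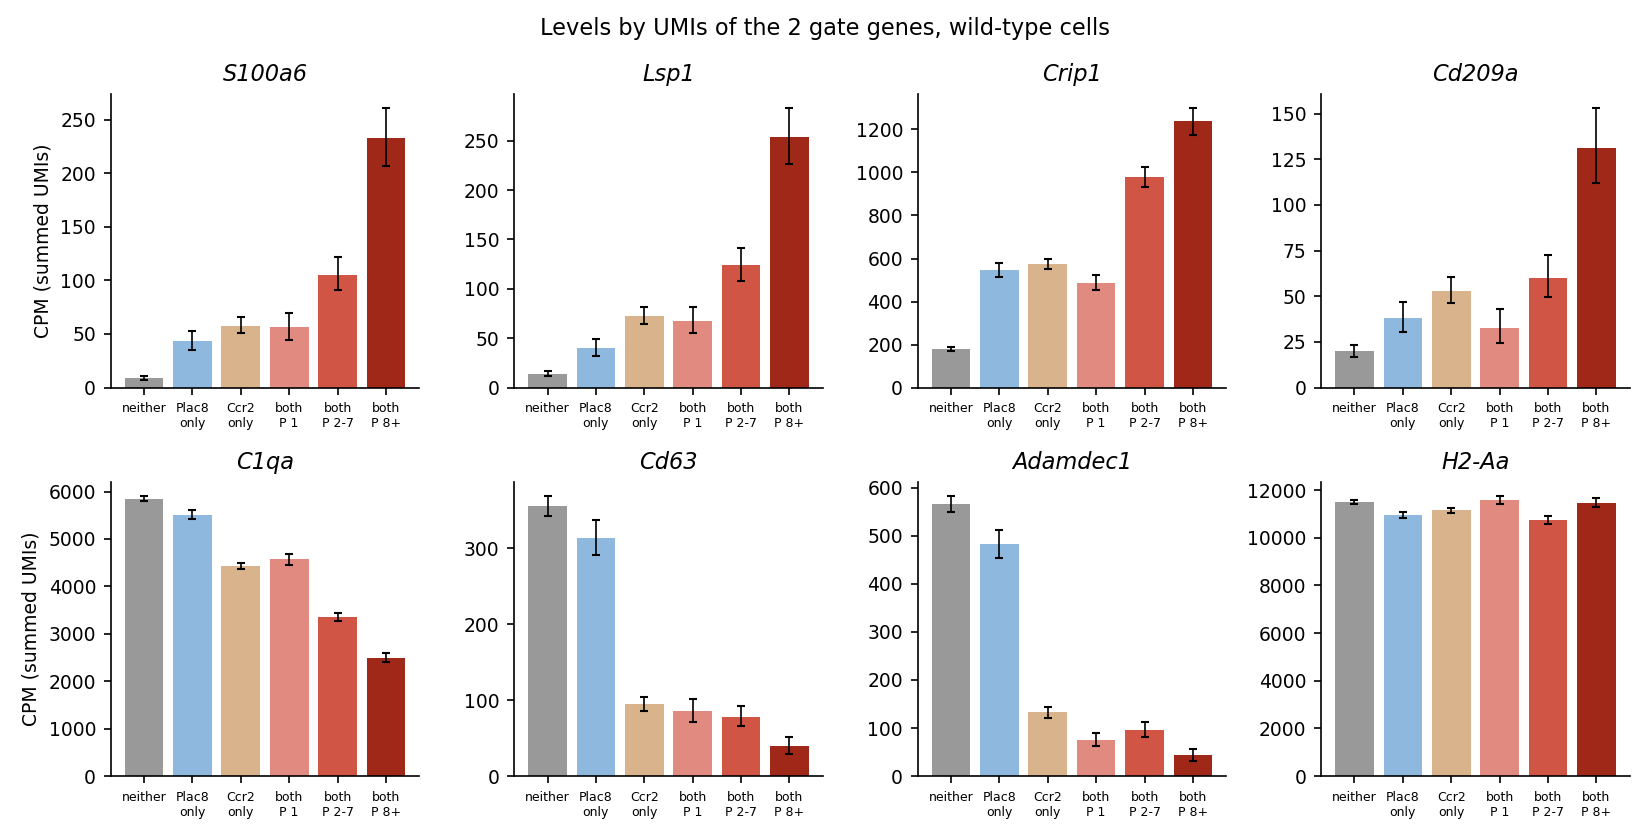
CPM of 8 genes in wild-type cells grouped by gate genes: neither gene, Plac8 without Ccr2, at least 2 Ccr2 UMIs without Plac8, and gated cells with 1, 2 to 7, and 8 or more Plac8 UMIs (P); bars are CPM of summed UMIs and whiskers 95% Poisson intervals. S100a6, Lsp1 and Cd209a are highest in the last bar, Cd63 and Adamdec1 are low wherever Ccr2 is at least 2, and H2-Aa stays between 10747 and 11577 CPM.

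The number of Ccr2 UMIs went with the same genes less evenly, and with depth. Cells with 2, 3 to 7, and 8 or more Ccr2 UMIs had medians of 7718, 8129.5 and 10131 UMIs. S100a6 stood at 111.5 CPM (83.8 to 145.5), 94.8 CPM (81.7 to 109.4) and 154.2 CPM (137.6 to 172.2) in them. Cd63 stood at 136.3, 78.1 and 46.5 CPM and Adamdec1 at 111.5, 98.3 and 43.1 CPM.

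Clustering of the gated cells alone, without the 2 gate genes, gave 9 groups of 13 to 96 cells. The genes named here defined the groups and are given as a description. Cluster 4, of 68 cells, held the highest levels of the S100 genes: S100a6 stood at 370.7 CPM, Lsp1 at 404.7 CPM, Ifitm6 at 136.0 CPM and Cd209a at 213.7 CPM. Its cells had medians of 11 Ccr2 and 7 Plac8 UMIs and came from both lanes, 44 and 24. Vim was at 1187 CPM and Lyz2 at 15806 CPM there. Tnfsf9, its first gene by ratio, had 31 of 40 UMIs in 1 cell. Cluster 2, of 90 cells, was led by Ccl17, with 100 of 142 UMIs in 1 cell, and by Ass1 and Osm. Il1b was at 3717 CPM and S100a6 at 190.1 CPM in it.

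Cluster 1, of 96 cells, was led by the Paneth cell defensin Defa24, from 6 cells with 22 of 40 UMIs in 1 of them, and held genes that were low in the gated cells as a whole, with Cd4 at 85.4 CPM, Adamdec1 at 194.0 CPM, Ccl8 at 255.0 CPM and S100a6 at 34.2 CPM. Its mitochondrial share was 4.53%, the highest of the 9. Cluster 5, of 51 cells, was led by Cd163 and Fcrls, with Pf4 at 1404 CPM, and 39 of its 51 cells had 1 Plac8 UMI. S100a6 stood at 41.3 CPM in cluster 5 and was as low in cluster 3, at 39.6 CPM, where Cd4 was at 4.24 CPM. Cluster 3 had no gene with a log2 ratio to the other gated cells above 1.39. Cluster 6, the shallowest at 4231 UMIs per cell, was led by Tff3, with 20 of 21 UMIs in 1 cell, and Alg11, with 8 UMIs.

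The 3 smallest clusters each carried a distinct set of transcripts. Cluster 7, of 28 cells, was led by cell-cycle genes such as Birc5, Ccnb2 and Ube2c and held 24 cells of lane 1 and 4 of lane 2. Cluster 9, of 13 cells, had as its first genes Rsad2, Cmpk2 and Ifit1, which interferon induces. Cluster 8, of 14 cells, was led by the epithelial genes Reg1, Gsta1 and Fabp1, and all 14 held at least 3 epithelial UMIs.

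**Figure D5:**
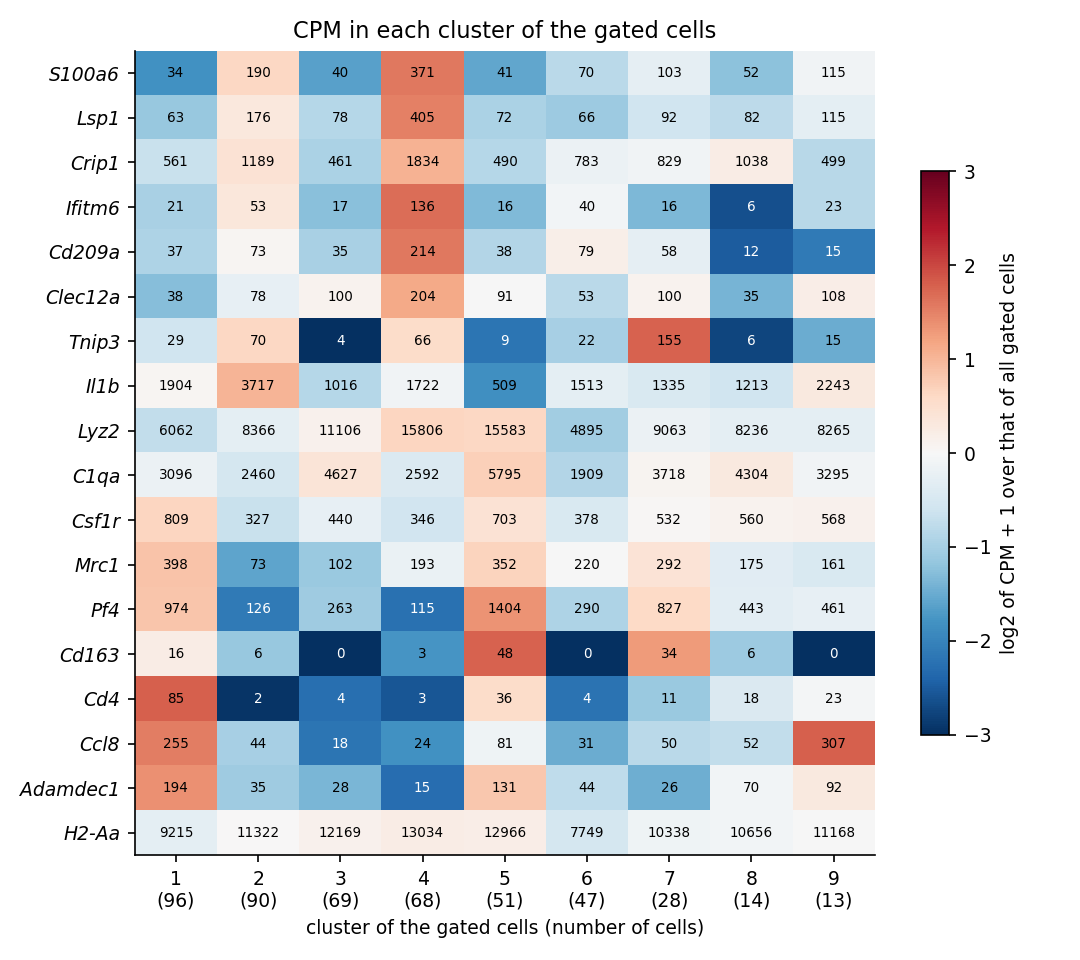
CPM (printed in each field) of 18 genes in the 9 clusters of gated cells, with cell numbers in brackets; colour is the log2 ratio to all gated cells with 1 CPM added, cut at 3 in size. S100a6, Lsp1, Ifitm6 and Cd209a are highest in cluster 4, and Cd4 and Adamdec1 in cluster 1.

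Cells with Cd209a had higher levels of some of the genes above and not of others. Of the 476 cells 97 held a Cd209a UMI, at a median of 9173 UMIs per cell against 8853 in the other 379. In them Lsp1 stood at 281.0 CPM against 102.1 CPM, Ifitm6 at 103.7 against 24.9 CPM, and Tnip3 at 104.7 against 28.6 CPM. Clec12a, at 89.2 against 93.9 CPM, hardly differed, and Ms4a4c was lower in them, at 106.8 against 165.4 CPM. C1qa, at 3160 against 3619 CPM, and H2-Aa, at 11554 against 11125 CPM, were closer together. Flt3 was at 7.26 CPM and 3.39 CPM, from 7 and 12 UMIs, and the intervals overlap. All 7 UMIs lay in the 35 cells with 3 or more Cd209a UMIs, whose median depth was 11995 UMIs. Flt3 stood at 16.9 CPM (6.80 to 34.8) in those 35, against 3.39 CPM (1.75 to 5.93) in cells without Cd209a. The cut at 3 Cd209a UMIs was not among the planned comparisons, and these cells are deeper. The intervals cover counting error only, so no difference is read from these few UMIs. Zbtb46 had 3 UMIs in the 35 cells and 0 in the 379.

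Marker genes of other lineages were also read. At least 4 of 16 enterocyte marker genes were detected in 21 gated cells (4.41%) and in 11 comparison cells (0.798%). The summed level of these genes was 191.3 CPM against 108.2 CPM, from a highest cell of 110 UMIs. Reg3b had 61 of its 145 UMIs in 1 gated cell, and its log2 ratio was 1.96. Fabp6, an ileal bile acid-binding protein, had 206 of its 384 UMIs in 1 gated cell. At least 4 T cell genes were seen in 0 gated and 4 comparison cells, at least 4 B cell genes in 0 and 2, and at least 4 plasma cell genes in 4 and 9. The plasma cell list summed to 396.2 CPM against 1652 CPM in the comparison cells, and 148 gated cells held 3 or more of its UMIs, most of them of Jchain and of Xbp1, which other cells express too. The plasmacytoid dendritic cell list summed to 394.0 CPM against 536.2 CPM, mainly through the broadly expressed Bst2, and Siglech, its defining marker, had 4 UMIs. The neutrophil list summed to 178.4 CPM against 572.3 CPM. Of its 11 genes 6 were at 0, among them S100a8, S100a9 and Ly6g, and Mmp9 and the receptor gene Csf3r gave 141.6 and 34.2 CPM of the sum. The part of such transcripts in the other values was not tested beyond the settings in which these cells were left out. The mast cell list summed to 1.78 CPM. The haemoglobin genes were lower in the gated cells through 1 comparison cell, which held 15450 haemoglobin UMIs, 95.8% of its total. Leaving out every cell with at least 3 epithelial UMIs, 80 of them gated, left 102 genes higher and 286 lower.

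The CCR2-/- library offers cells with Plac8 but no receptor for a view of the same genes. At least 3 Plac8 UMIs were found in 48 of 2612 CCR2-/- cells (1.84%, 1.36% to 2.43%) and in 329 of 3016 wild-type cells (10.9%, 9.82% to 12.1%), not thinned. In the 48 cells S100a6 stood at 481.8 CPM (403.7 to 570.7), from 24 cells, against 14.3 CPM in CCR2-/- cells without Plac8. Lsp1 stood at 395.5 CPM and Ifitm6 at 125.9 CPM. In the 329 wild-type cells the levels of S100a6, Lsp1 and Ifitm6 were 156.9, 178.7 and 55.4 CPM. Not all genes that were higher in the gated cells stood out in the 48 cells. Clec12a stood at 28.8 CPM (12.4 to 56.7) against 18.0 CPM (14.9 to 21.6) in CCR2-/- cells without Plac8. Tnip3 stood at 18.0 CPM (5.8 to 42.0), from 2 cells, against 7.0 CPM (5.1 to 9.4). For both genes the intervals overlap. Clec10a was lower, at 21.6 against 47.6 CPM.

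Other genes are given for the 48 cells beside the CCR2-/- cells without Plac8. Fn1 stood at 359.6 CPM (292.6 to 437.4), from 15 cells, and had 36 UMIs in 31 of the 2388 cells without Plac8. Vcan stood at 43.2 CPM against 0.311 CPM. C1qa stood at 913.4 CPM against 3006 CPM. Adamdec1 stood at 1348 CPM, with 92 of 375 UMIs in 1 cell, against 1047 CPM. One cell of the 48 held 250 of 252 Reg3b UMIs and 1 held 872 of 911 Jchain UMIs, and the part of such cells in the other levels was not tested. Levels of the 2 genotypes are not compared, since each comes from 1 library of different depth.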

How the data were processed

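Cells were sequenced with 10x 3′ v2 chemistry. Cell Ranger 3.0.1 and the mm10 build are named in the submitters' processing notes. The authors deposited UMI counts, whole numbers without normalisation, for 27998 genes. Coordinates are from GENCODE M21 (GRCm38), which holds 98.7% of the gene identifiers. How cells were called is not given in the sources used here.

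Cells were filtered, gated and summed as described in the report (numpy 2.4.6, pandas 2.3.3). Genes named were the 20 highest and 15 lowest past 2-fold in both lanes, the given markers, and from 36 role lists the genes with the 2 highest and 2 lowest ratios and those that define the list; other genes were named after their values were seen, cluster genes among them. The gated cells and the lists were chosen with earlier results of these data known. Gated cells were clustered on variable genes with Leiden (leidenalg 0.10.2). No doublets were removed in the values reported; removal of the 43 highest Scrublet scores (scanpy 1.11.5), 14 of them gated, was an alternative. Summing was tested on simulated counts. With 1 library per genotype no test could be made.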

Additional observations from a re-analysis of the deposited data

How the results depend on the processing

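The counts of 99 higher and 246 lower genes depended on the level required and on the gate. They were 276 and 647 without a minimum level, 32 and 88 with a minimum of 50 CPM, 62 and 140 with 10 CPM added in place of 1, and 54 and 151 against all other passing cells. After thinning, 392 genes were lower in the cells gated beforehand, and 270 were higher and 627 lower with the gate applied afterwards, when the gated share was 5.79%. In cells of 4000 to 8000 UMIs, a band chosen after seeing the data, the share was 11.6% and 384 genes were lower. The share was 17.7% under a stricter cell filter, 18.1% with 1 Ccr2 UMI sufficing and 10.3% with 2 Plac8 UMIs required. Median-of-ratios size factors moved the median of all genes from −0.09 to 0.00 and the calls to 127 and 201. The cause of each shift was not tested, beyond fewer or more genes and cells entering.

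Of 95 named genes past 2-fold, 26 came under it in at least 1 alternative run: Ahnak, Bag3, Ccl6, Ccl12, Ccl17, Cd274, Cks2, Clec4b1, Csf1r, Ctsb, Ctsl, Fabp6, Id3, Ifitm1, Il10, Itgav, Lgals1, Lpl, Mmp12, Msr1, Mzb1, Osm, Pfkp, Reg3b, Rxra and Vim. Reversals were Ccl17, −0.015 with the gate after thinning and −2.01 at 4000 to 8000 UMIs, and Reg3b, −1.63 against all other cells. No paired analysis was possible because each genotype had 1 library. Depth limits statements on rare transcripts such as Ly6c2 and Flt3.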
